A study of Drosophila melanogaster with 2 samples.

Results

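Chromatin immunoprecipitation of GFP-tagged espinas from white prepupae of Drosophila melanogaster gave 10681 regions on the major arms (2L, 2R, 3L, 3R, X) and chromosome 4, and 235 of them carried 2 or more summits (2.20%, 95% Wilson interval 1.94 to 2.50). A summit is the position at which the authors' peak caller placed a maximum of enrichment in a region, and in 2 of the 235 the last summit lay 1 base past the region's end. The 235 regions were selected on the list itself: they are the sets of rows with identical chromosome, start and end, each row with a summit of its own. The interval covers counting error only, and the number moved more with the processing than it spans: the strongest 10918 rows of replicate 1 alone held 144 such regions and those of replicate 2 alone held 302, and joining all overlapping rows gave 1092 stretches with several summits. The 235 regions made up 472 of the 10918 rows on the arms. Of the 235, 233 had 2 summits and 2 had 3 summits, and the other 10446 regions had 1. By arm, the multi-summit regions were 47 on 2L, 43 on 2R, 42 on 3L, 55 on 3R and 48 on X, which is 1.77% to 2.49% of the regions of each of these arms, and 0 of 42 regions on chromosome 4.

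The series has 1 group, with 2 biological replicates: whole animals of both sexes, pooled, from a transgenic line that stably carries esn fused at its C-terminus to GFP, collected at the white prepupa stage at the start of metamorphosis. The chromatin was sheared by sonication, with a labelled fragment size of 200 to 800 bases, and was recovered with an antibody against GFP. No untagged group was analysed here and the control libraries were not used, so binding by espinas and recovery of chromatin without it cannot be told apart. The labels do not say how the animals of each replicate were raised or collected, the depth of the libraries is unknown, and the tissue of origin of a region cannot be told in a whole animal. Espinas belongs to the Prickle family of LIM-domain proteins, and Prickle is a core protein of planar cell polarity, which aligns cells across an epithelial sheet. A region with several summits is a stretch of enrichment in which a caller found more than 1 local maximum. Such a stretch can lie across a divergent promoter, where a pair of genes start back to back and share 1 stretch of open chromatin, or across an enhancer, which is a cluster of binding sites away from a gene start.

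The sequences of 4 of the strongest multi-summit regions are shown so that the spacing can be seen on the bases. They are the strongest of all, in an intron of CG9663 (chr2L:3302181-3302423), the divergent promoter of CG5611 and Mtl (chr3R:27636152-27636393), an intron shared by chif and Hyls1 (chr2L:16351248-16351497), and the promoter of papi (chr2L:2221773-2222053). Each stretch is given on the plus strand of dm6, 5′ to 3′, from 20 bases before the first summit to 20 bases after the last, and capitals mark the summit with 5 bases on each side of it.
CG9663: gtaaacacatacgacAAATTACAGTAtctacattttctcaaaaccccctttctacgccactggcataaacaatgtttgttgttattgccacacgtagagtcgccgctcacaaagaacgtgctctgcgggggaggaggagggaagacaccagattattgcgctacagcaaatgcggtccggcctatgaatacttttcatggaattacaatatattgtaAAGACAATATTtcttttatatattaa
CG5611/Mtl: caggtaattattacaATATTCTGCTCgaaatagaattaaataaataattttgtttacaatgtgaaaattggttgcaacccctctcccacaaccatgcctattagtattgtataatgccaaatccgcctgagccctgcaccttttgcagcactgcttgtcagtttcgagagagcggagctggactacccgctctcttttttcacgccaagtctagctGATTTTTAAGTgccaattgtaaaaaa
chif: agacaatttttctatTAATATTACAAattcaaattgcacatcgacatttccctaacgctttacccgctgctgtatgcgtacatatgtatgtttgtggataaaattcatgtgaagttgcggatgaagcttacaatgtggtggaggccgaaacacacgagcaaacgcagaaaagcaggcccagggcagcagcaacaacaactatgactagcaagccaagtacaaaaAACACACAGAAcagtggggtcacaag
papi: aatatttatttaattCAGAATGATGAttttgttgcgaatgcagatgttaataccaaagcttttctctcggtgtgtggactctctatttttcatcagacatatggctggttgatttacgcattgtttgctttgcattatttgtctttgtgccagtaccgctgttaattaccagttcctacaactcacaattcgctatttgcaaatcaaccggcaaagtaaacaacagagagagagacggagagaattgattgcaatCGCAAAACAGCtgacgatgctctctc
In the 51 bases centred on each summit of the CG9663 intron, G+C was 33.3% at the first and 13.7% at the second, against 62.7% at the midpoint between them. At papi it was 27.5% at the first and 47.1% at the second summit, against 39.2% at the midpoint. So both summits of the CG9663 intron lay in A+T-rich sequence on either side of a G+C-rich stretch, whereas at papi only the first did.

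A few regions had summits much further apart. Of the 235 regions, 8 had neighbouring summits at least 300 bases apart, and the windows of 101 bases around the summits of 3 of them follow, on the plus strand of dm6, with capitals as before. The windows were chosen after the spacings had been seen. They lie at ph-p (chrX:2137278-2137378 and chrX:2137931-2138031) and in introns of Diap1 (chr3L:16045494-16045594 and chr3L:16046127-16046227). The last lie inside the span of grp, between a start of CG31807 and a start of grp (chr2L:16684304-16684404, chr2L:16684520-16684620 and chr2L:16684992-16685092). That region is 1 of the 2 with 3 summits.
ph-p, first: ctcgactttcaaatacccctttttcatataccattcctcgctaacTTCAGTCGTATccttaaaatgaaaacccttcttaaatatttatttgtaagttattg
ph-p, second: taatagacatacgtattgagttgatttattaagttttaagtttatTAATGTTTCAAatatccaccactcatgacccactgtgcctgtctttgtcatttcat
Diap1, first: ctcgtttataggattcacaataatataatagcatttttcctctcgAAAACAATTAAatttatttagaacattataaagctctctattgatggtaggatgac
Diap1, second: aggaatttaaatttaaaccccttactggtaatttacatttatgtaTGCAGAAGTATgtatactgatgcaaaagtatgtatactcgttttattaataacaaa
CG31807/grp, first: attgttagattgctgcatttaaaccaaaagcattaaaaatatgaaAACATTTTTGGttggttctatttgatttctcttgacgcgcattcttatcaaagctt
CG31807/grp, middle: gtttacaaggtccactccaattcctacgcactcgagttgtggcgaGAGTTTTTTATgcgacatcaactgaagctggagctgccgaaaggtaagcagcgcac
CG31807/grp, last: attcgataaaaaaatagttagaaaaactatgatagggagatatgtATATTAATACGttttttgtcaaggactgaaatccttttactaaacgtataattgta
At ph-p the G+C of 51 bases was 37.3% at the first and 27.5% at the second summit, against 45.1% at the midpoint, and in Diap1 it was 19.6% and 27.5%, against 47.1%. In the CG31807/grp region, the outer summits, each near a start of 1 of these genes, lay in A+T-rich windows. Their G+C was 28.9% and 23.9% over 201 bases, and the middle summit lay in a window of 39.8%.

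A further kind of layout was the same motif at each summit. Over 13 short motifs, the only multi-summit region with TATCGATA, the DNA replication-related element, within 100 bases of both summits lay at the divergent promoter of RpL34a, a ribosomal protein gene, and Trmt61 (chr3R:26059293-26059498, plus strand of dm6, TATCGATA in capitals, which reads the same on both strands).
RpL34a/Trmt61: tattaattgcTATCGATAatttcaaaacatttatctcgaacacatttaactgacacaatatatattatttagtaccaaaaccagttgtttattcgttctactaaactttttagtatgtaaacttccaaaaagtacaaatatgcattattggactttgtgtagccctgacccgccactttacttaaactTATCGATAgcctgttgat
The summits at this promoter had signal values of 897 and 599, the first 27 bases from the start of RpL34a and the second 4 bases from that of Trmt61.

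Neighbouring summits of a region mostly lay at close to the shortest distance found anywhere in the lists, and the one at the higher coordinate was almost always the weaker. The 237 pairs of neighbouring summits were 199 to 653 bases apart, with a median of 205 and quartiles of 202 and 216, and 214 of them (90.3%, interval 85.9 to 93.4) were 199 to 239 bases apart. No neighbouring summits of the IDR list, of the pooled list or of either replicate list were closer than 199 bases, whether or not they shared a region. The strongest summit lay at the lowest coordinate in 230 of the 235 regions (97.9%). This held whichever way the nearest gene ran: it was so in 98 of 100 regions whose strongest summit was nearest a start on the plus strand and in 132 of 135 on the minus strand. These distances and this order come from the list that chose the regions and are a description.

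**Figure D1:**
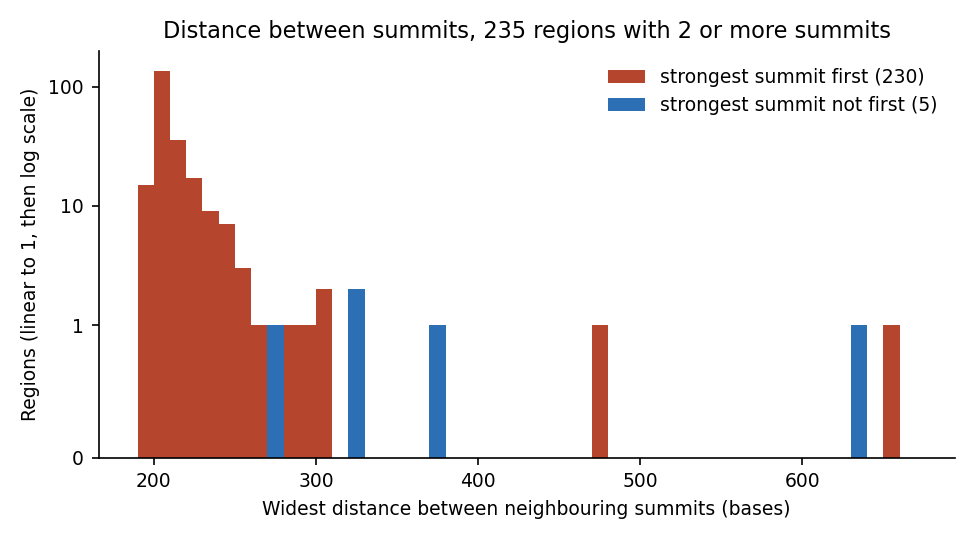
Number of multi-summit regions (y axis, linear to 1 and log above) by the widest distance between their neighbouring summits in bases (x axis, bins of 10 bases), coloured by whether the strongest summit was the first along the arm. All 213 regions below 240 bases had the strongest summit first, and the 5 regions that did not lie between 277 and 633 bases.

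The order changed with the distance. Among the 213 regions with all summits less than 240 bases apart, the strongest was first in 213, against 17 of the 22 regions with summits at least 240 bases apart and 4 of the 8 with at least 300 bases. The same was seen between neighbouring rows of the IDR list over all regions. The first of 2 neighbours was the stronger in 605 of 606 pairs at 199 to 204 bases, in 291 of 293 at 205 to 215 bases, in 157 of 159 at 216 to 239 bases, in 82 of 108 at 240 to 299 bases (75.9%), in 34 of 62 at 300 to 399 bases (54.8%) and in 5 of 12 at 400 to 499 bases. Pairs at the shortest distances also occurred outside the multi-summit regions: 871 neighbouring rows overlapped with other coordinates, at a median of 204 bases between summits, and the first was the stronger in 834 of them (95.8%). Their starts and ends differed by a sum of 2 bases or more, with a median of 413 bases, and 30 of them, which differed by at most 10 bases, fell just outside the rule of identical coordinates. A cause of the order was not tested. Values of second summits are given by distance as well for the order, the promoter shares and G+C at summits and midpoints, and not for motifs, mirror positions or the strand of the gene.

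The multi-summit regions were strong at 1 summit and ordinary at the other. The signal value, the authors' own measure with no stated scale, had a median of 1193 at the strongest summit (354 to 4034) and of 351 at the weakest (165 to 3118), against 320 in single-summit regions (164 to 8950). Of the strongest summits, 214 (91.1%) ranked in the strongest 20% of rows, against 35 (14.9%) of the weakest summits and 18.5% of the single-summit regions. The weakest summit reached a median of 32.6% of the signal of the strongest (7.00% to 95.9%), less than 25% in 83 regions and at least 80% in 7. The regions were a median of 517 bases wide (242 to 1308), against 476 bases (119 to 1011) for single-summit regions, of which 5301 had exactly that width; 1 multi-summit region did. On the pooled list, before the IDR threshold, 356 regions had several summits: the 235 here and 121 with only 1 summit left in the IDR list. The weakest summits of those 121 had signal values of 42.5 to 163.9, and the weakest summits of the 235 began at 165.0, on either side of the lowest value in the IDR list, 164.2.

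**Figure D2:**
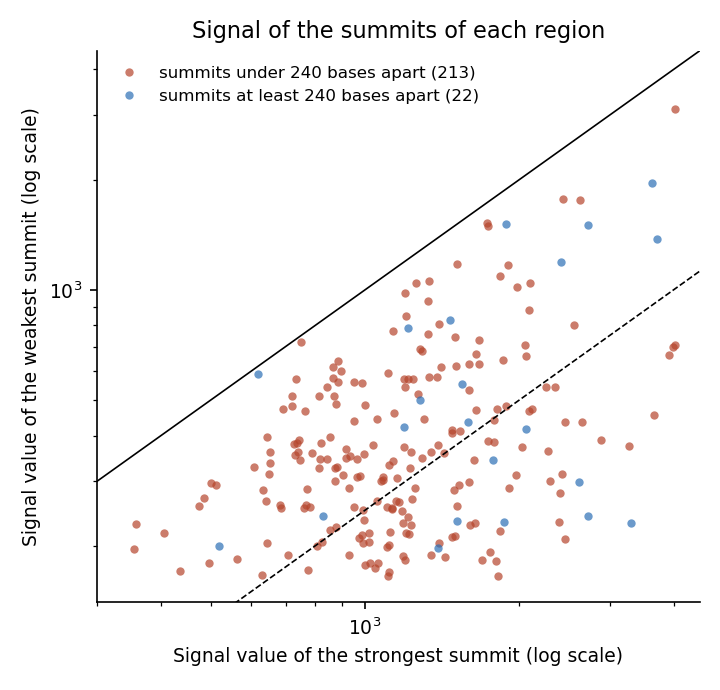
Signal value of the weakest summit (y axis, log scale) against that of the strongest (x axis, log scale) in each of 235 regions, coloured by whether neighbouring summits were at least 240 bases apart. The solid line marks equal signal and the dashed line a weakest summit at 25% of the strongest, below which 83 regions lie.

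The strongest multi-summit regions lay in introns and at promoters of genes of varied function. In the CG9663 intron the summits had signal values of 4034 and 3118, 202 bases apart. They were present in both replicates, at 2699 and 1885 in replicate 1 and at 1318 and 1260 in replicate 2, on scales that differ between lists. The first summit was the stronger in each list, which is the order of 230 of all 235 regions. At the divergent promoter of CG5611 and Mtl, which encodes a small GTPase of the Rac family, they had 4023 and 706, 201 bases apart. In the intron of chif, which encodes the activator of a kinase that starts DNA replication, they had 3983 and 697. In the replicate lists they had 2584 and 558 (replicate 1) and 1364 and 166 (replicate 2), so the second was the weaker in both. Those at the promoter of CG3552 and CG3437 had 3916 and 664. An intron of Adf1, which encodes a DNA-binding transcription factor, held summits of 3710 and 1376 at a wider distance of 291 bases (chr2R:6662778-6663719), and both were found in either replicate, at 2448 and 778 in replicate 1 and 1194 and 539 in replicate 2. Its G+C over 51 bases was 25.5% at each summit, against 60.8% at the midpoint, the layout of the CG9663 intron. Over 201 bases it was 45.8% at the first and 33.3% at the second summit. Tina-1 had 3669 and 456, and the 2 summits at ph-p had 3627 and 1956. The promoter of papi, a gene of the piRNA pathway, had the most unequal pair of all 235, with 3305 and 231. The second of these was not matched within 50 bases in replicate 1, and was matched with 329 in replicate 2. Eno, the glycolytic enzyme enolase, had 3277 and 375, and the promoter of CG1275 and Elp5, an Elongator subunit, had 2890 and 388.

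Widely spaced pairs were few, and each is described here. At ph-p, which encodes a subunit of the Polycomb repressive complex, the summits lay 653 bases apart, the widest of all, each within 500 bases of a different start of the gene. Replicate 1 had 2630 and 1417 there and replicate 2 had 1069 and 655. The Diap1 intron, in the gene of an inhibitor of cell death, had the next widest distance, 633 bases, and was one of those with the stronger summit second, at 435 and 1590. The same order was found in replicate 1 (245 and 1101) and in replicate 2 (191 and 533). At CG31807 and grp, the fly Chk1 kinase of the DNA damage checkpoint, the 3 summits had 1547, 920 and 552, the last 472 bases after the second. All 3 lay within the span of grp, the middle one in a 5′ UTR. The starts nearest the outer summits lay 1382 bases apart, back to back. Close to CG12643, the other region with 3 summits had 553, 1868 and 233, at distances of 321 and 276 bases, and the middle one was strongest. Only that middle one was matched in replicate 1, while all 3 were in replicate 2. Upstream of tara, a transcriptional co-regulator, the summits were 327 bases apart with 829 and 1466. Replicate 1 had 309 and 1086 there, while replicate 2 had 514 and 379, so the stronger summit differed between the replicates. At prtp, whose product takes part in the engulfment of dying cells, the summits had 1279 and 499. Between genes near muc they had 1190 and 423, in the widest region of all (1308 bases). At sky, which encodes a Rab GTPase-activating protein of the synapse, 587 and 618 were nearly equal, and the stronger was the second in replicate 1 (316 and 445) and the first in replicate 2 (264 and 163). At the other end, 15 regions had summits exactly 199 bases apart, the strongest of them at pnut, a septin gene (2427 and 313), at RpL32 and CG7943 (1860 and 645) and at chas (1808 and 474).

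**Figure D3:**
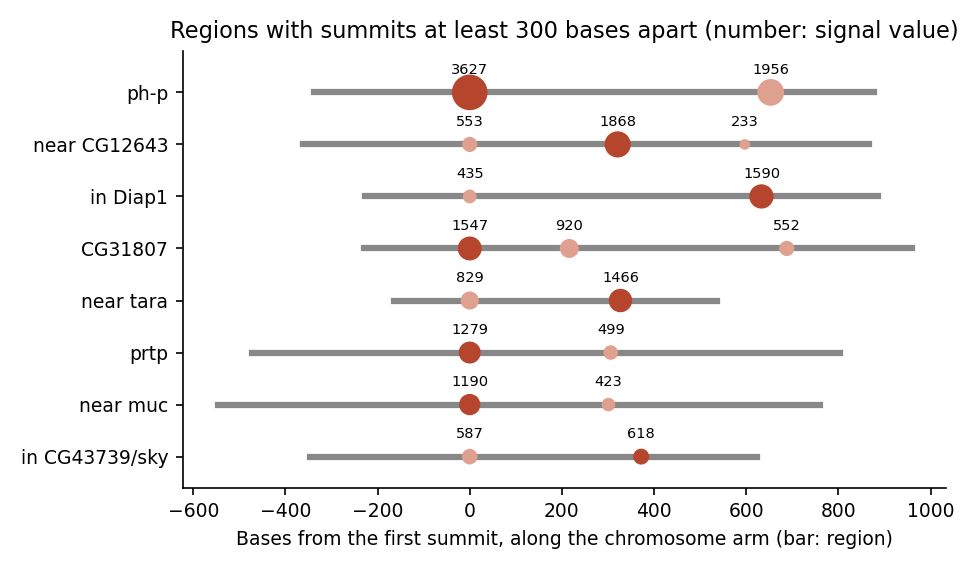
The 8 regions with neighbouring summits at least 300 bases apart, by distance from the first summit in bases along the arm (x axis). Each bar is a region, each circle a summit with an area proportional to its signal value, printed above it, and the dark circle is the strongest: it is the first summit in 4 regions and a later one in the other 4.

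With promoters drawn at 500 bases, promoter summits were counted in a larger share of the multi-summit regions than of the single-summit regions. At least 1 summit lay no further than 500 bases from a protein-coding transcript's start in 131 of 235 (55.7%, interval 49.4 to 62.0), against 41.5% of single-summit regions (40.6 to 42.5) and 41.8% of all regions. With more than 1 summit a region has more chances, and counted by the strongest summit alone the share was 51.1% (120 regions, interval 44.7 to 57.4), against 41.7% of all regions. Among summits in the strongest 20% of rows it was 51.9% (111 of 214), against 42.1% of single-summit regions of that strength. With promoters drawn at 250 bases, the share by the strongest summit was 32.8%. The share of single-summit regions at that distance is not given here, so the difference is shown at 500 bases only. The share with at least 1 promoter summit was close between regions with all summits under 240 bases apart (55.9%) and those at 240 bases or more (54.5%, 12 of 22). Both summits lay in the same annotation class in 209 regions (88.9%): at promoters in 108, in introns in 81 and in intergenic sequence in 16. Most summits lay under 240 bases apart, and the promoter class reaches 500 bases on each side of a start. The share for positions as close in single-summit regions is not given here. So 88.9% is not shown to be particular to multi-summit regions. The strongest summit was intergenic in 9.36% of multi-summit regions, against 17.0% of the single-summit regions, and intronic in 37.9%, against 37.7%. None of the strongest or weakest summits lay in a coding exon, against 24 of 10446 single summits. Regions are not replicates of a condition, and no test of these shares was made.

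**Figure D4:**
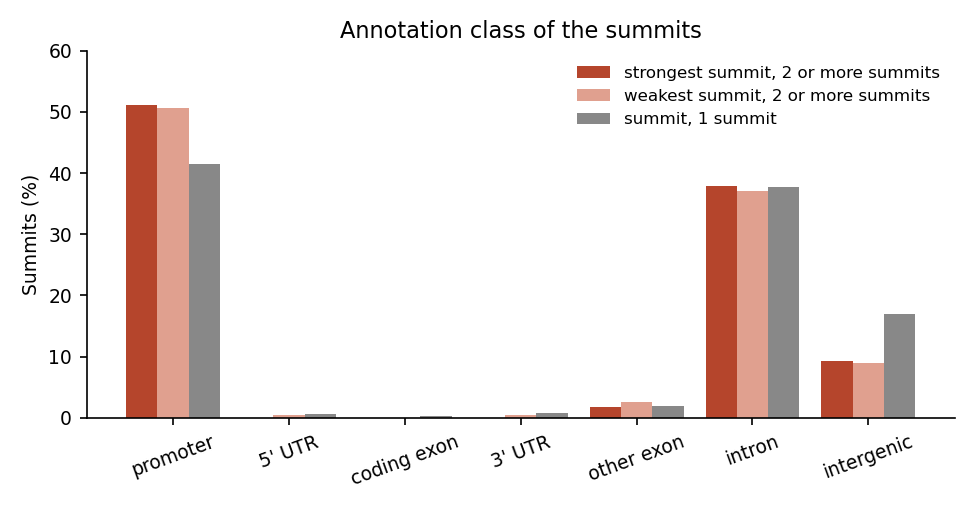
Share of summits (y axis, percent) in each annotation class (x axis) for the strongest and the weakest summit of 235 multi-summit regions and for the summits of 10446 single-summit regions. Promoters held 51.1% and 50.6% of the strongest and weakest summits, against 41.5% of single ones.

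At promoters the distances to the start are given by the strand of the gene. In 108 regions every summit was a promoter summit. Where the start nearest the strongest summit was on the plus strand (42 regions), the strongest lay a median of 233.5 bases upstream of it and the weakest a median of 25.5 bases upstream. Where it was on the minus strand (66 regions), the strongest lay a median of 98.5 bases upstream and the weakest 314 bases upstream. The weakest summit lay at the higher coordinate in all 108, which fixes that it was further along the direction of transcription in 42 of 42 of the first and in 0 of 66 of the second. Counted on either side, the strongest summits of the 108 lay a median of 168.5 bases from their nearest start and the weakest 112 bases. In single-summit promoter regions the summit lay a median of 101 bases from it, on either side.

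In 25 regions (10.6%, interval 7.31 to 15.2) different summits lay at promoters of different genes, and in all 25 the pair was divergent. Their starts were a median of 314 bases apart (65 to 1382). This does not set them apart from other promoter regions by gene count: 34.4% of promoter regions with several summits had starts of 2 or more genes within reach, and 34.4% of those with 1 summit. The share of divergent pairs among those with 1 summit is not given here. So 25 of 25 is not shown to be particular to multi-summit regions. The strongest after CG5611 and Mtl was that of RpS27 and Nup37, a nuclear pore gene, with signal values of 2090 and 467 at 30 and 105 bases from the starts. The replicates had 1587 and 400 (replicate 1) and 515 and 208 (replicate 2). It was followed by RpL32 and CG7943 (1860 and 645), RpL34b and CG8132 (1693 and 183), and CG31807 and grp. The stronger summit lay nearer the gene at the lower coordinate, which is the one on the minus strand, in each of these 5. The strongest summit lay at the lowest coordinate in 230 of all 235 regions, and the lower gene of a divergent pair is always on the minus strand. So the order in these 5 follows from that of all regions and shows no preference for 1 gene of a pair. At RpL34b and CG8132 the second summit was not matched within 50 bases in either replicate list, and no summit there was matched in replicate 2.

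Cytosolic ribosomal protein genes were the list most often found at promoters with several summits. The lists were chosen with earlier results of these data known, and no test was made of any of them. Of 92 ribosomal protein genes, 9 (9.78%) had a promoter summit in a multi-summit region, against 1.27% of all 13945 protein-coding genes. Of the 75 that had a promoter summit in any region, the 9 were 12.0% (interval 6.44 to 21.3), against 3.59% of all genes with one. A promoter summit in any region was found for 35.4% of all protein-coding genes. The promoters of ribosomal protein genes were also stronger: their strongest summit had a median signal of 641, against 375 for all genes with a promoter summit, and 46.7% ranked in the strongest 20% of rows, against 25.9%. Within that strongest 20%, 8 of 35 ribosomal protein genes (22.9%, interval 12.1 to 39.0) had a multi-summit region, against 11.8% of all genes (10.1 to 13.6), and these intervals overlapped. The 9 genes were RpS27, RpL32, RpL34b, RpL28, RpS25, RpL34a, RpS23, RpL23 and RpS5a, and 7 of them shared the region with a divergent neighbour on which a summit fell. Their summits were 199 to 225 bases apart. Chromatin and insulator genes had 1 of 38 (ph-p), developmental signalling genes 1 of 41 (numb, an inhibitor of Notch, with 1595 and 299), and heat shock and chaperone genes 1 of 23 (Hsc70-5, a mitochondrial chaperone, with 1134 and 773). Genes of planar cell polarity, the ecdysone response, developmental transcription factors and the cuticle had 0 of 19, 0 of 31, 0 of 49 and 0 of 111. No multi-summit region overlapped esn itself.

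Inside genes, the ecdysone response list had the largest share of members with a multi-summit region among the 8 lists. Ecdysone is the steroid hormone whose pulse starts the prepupal stage, and its early genes Eip75B and Eip74EF encode a nuclear receptor and an ETS transcription factor. These regions were named after their values had been seen. Of 31 genes of this list, 5 (16.1%) held a multi-summit region's summit within their span, all in introns, against 1.24% of all protein-coding genes. The genes of this list are long, with a median span of 21112 bases, against 2166 bases for all genes, and 24 of the 31 held a summit of some region, against 19.7% of all genes. Of genes with such a summit, the 5 were 20.8%, against 6.28% of all, and the genes with a multi-summit region had a median span of 83434 bases in this list and of 12900 bases over all genes. The part of gene length in this share was not tested. The summits in Eip63E had 1515 and 1177, 202 bases apart, with 1008 and 764 in replicate 1 and 504 and 393 in replicate 2. Those in Eip75B had 1388 and 197 at 250 bases, those in Eip74EF 775 and 172, those in tai, a coactivator of the ecdysone receptor, 707 and 189, and those in Hr4, a nuclear receptor, 652 and 338. The second summit was weaker in all 5. The strongest summit was the first in 230 of all 235 regions, so this order is not particular to the list. Among signalling genes, introns of Egfr (1392 and 203) and Socs36E (405 and 217) held one each, and ush, which encodes a cofactor of GATA factors, had summits of 950 and 561 in an intron. Of the genes with a summit of some region in their span, a multi-summit region was found in 12.5% for the heat shock list (1 of 8), 11.5% for the signalling list (3 of 26), 10% for the chromatin list (2 of 20), 3.23% for the transcription factors (1 of 31), 3.03% for the ribosomal protein genes (1 of 33), 0 of 10 for planar cell polarity and 0 of 3 for the cuticle. No test was made of these shares, which rest on few genes.

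Away from promoters, 104 multi-summit regions had no promoter summit at all. The strongest 5 were those in introns of CG9663, chif and Adf1, an intergenic region 1513 bases from CG34460 (2724 and 240) and an intron of wit, which encodes a type II receptor of the BMP pathway (2559 and 800). In the wit intron, replicate 1 had 1788 and 477 and replicate 2 had 807 and 244, and both lists split the region into several summits as well.

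The strongest summits lay in the most A+T-rich sequence and the weakest in sequence closer to the surroundings. Over 201 bases, G+C averaged 32.1% ± 6.05 at the strongest summits and 40.9% ± 7.85 at the weakest (SD over 235 regions), against 35.8% ± 7.41 at single summits (SD over 10446). It was lower at the strongest than at the weakest summit in 187 of 235 regions. The strongest summits and the single summits were not matched by signal: 91.1% and 18.5% of them ranked in the strongest 20% of rows. The part of signal in the G+C values was not tested. At positions mirrored about the strongest summit, as far before it as the weakest lay after it, G+C was 45.1% ± 7.40. At 205 bases after and before single summits, it was 43.1% and 42.2%. Mirror positions exceeded the weakest summits by a mean of 4.20 points, and the mean difference of the strongest from the weakest summits was -8.76 points. The lowest value of the profile did not fall on the strongest summit but 20 bases after it, with 29.1% over 51 bases, against 30.3% at the summit itself; in single-summit regions it was 34.5% at 20 bases, against 34.3% at the summit.

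**Figure D5:**
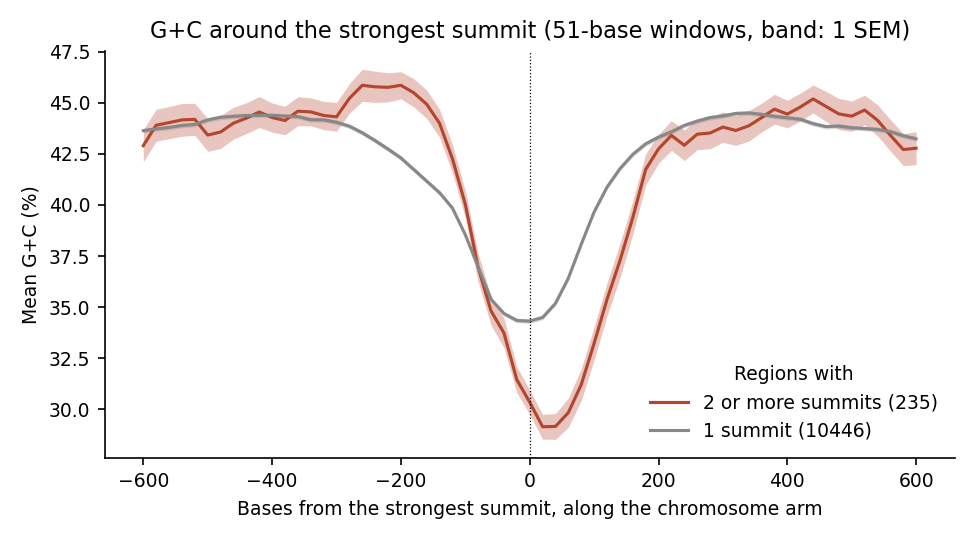
Mean G+C in percent (y axis) of 51-base windows by distance in bases from the strongest summit along the arm (x axis), for 235 multi-summit and 10446 single-summit regions, with bands of 1 SEM over regions. The trough of the multi-summit regions reaches 29.1% and is shifted to the side where most of the weakest summits lie, and the profile returns to 42.7% at 200 bases. The groups were not matched by signal.

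This pattern was weaker in the widely spaced pairs, and by group mean the weakest summits were the more A+T-rich only at 300 bases or more (8 regions). Single regions at shorter distances also had this order. At RpS27 and Nup37, with summits 222 bases apart, G+C was 40.3% at the strongest and 26.4% at the weakest summit. The strongest summit had the lower G+C in 187 of all 235 regions. With all summits less than 240 bases apart, G+C was 31.9% ± 5.88 at the strongest and 41.1% ± 7.81 at the weakest summits (213 regions), and over 51 bases the summits averaged 36.4%, against 32.9% at their midpoints. With summits at least 240 bases apart it was 34.2% ± 7.26 and 38.6% ± 8.05 (22 regions), and 36.2% at summits against 40.5% at midpoints. At 300 bases or more it was 35.0% ± 6.58 at the strongest and 31.2% ± 5.01 at the weakest (8 regions), and 33.7% at summits against 43.9% at midpoints. Over all regions the summits exceeded the midpoints by 2.69 points, so the sign of the difference between summit and midpoint turned with the distance. The midpoint of a pair 205 bases apart lies only about 100 bases from the strongest summit, inside its A+T-rich trough.

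Of 13 short motifs, some were found more often at the strongest and some at the weakest summits. Each was searched on both strands within 100 bases of a summit. The A tract (AAAAAAA) can share bases with the TATA box, and the GATA site (GATAAG) with the replication element. The core of the TATA box, TATAAA, lay at 95 strongest summits (40.4%, interval 34.4 to 46.8) and 63 weakest ones (26.8%), against 42 of the mirror positions (17.9%) and 35.7% of single summits; it was found at the strongest summit of 35.8% of all regions, and at both summits in 27 of the 235 (11.5%, against 2.55% with windows of 50 bases each side). The repeat GAGAGAG, recognised by GAGA factor, ran the other way, with 2.98% of strongest and 8.94% of weakest summits, against 10.6% of mirror positions and 4.07% of single summits (4.04% over all regions). The repeat CACACACA had 2.13% and 8.94%, against 12.3% and 3.59% (3.56% over all regions), and CAGCTG, an E-box, had 5.53% and 11.5%, against 13.2% and 8.42%. For each of these 3 motifs the weakest summits lay nearer to the mirror positions than to the strongest summits. The A tract was at 26.0% of strongest and 16.6% of weakest summits, against 16.6% of mirror positions and 27.6% of single summits. G+C differed between these positions, as given above, and its part in the motif shares was not tested. Signal differed between the strongest, weakest and single summits, and its part was not tested either. TATCGATA was at 4 strongest summits (1.70%) and as many weakest ones, against 3.90% of single summits. The GATA site was at 9.36% of strongest and 11.1% of weakest summits, the heat shock element unit at 4.68% of each, and the E-box CACGTG at 1.28% and 2.13%, against 6.81% of mirror positions. The GAGA repeat, the nuclear receptor half-site (AGGTCA), the heat shock element unit (GAANNTTC), the E-box CACGTG, the Zelda site (CAGGTAG) and Motif 1 of core promoters (GGTCACAC) were at both summits of 0 regions. The A tract was at both in 8, or in 0.426% of regions with windows of 50 bases each side, the E-box CAGCTG in 2, and the AP-1 site (TGANTCA), the GATA site, the replication element and the CA repeat in 1 each. A match is a description of the letters and shows no binding.

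Both replicates held most of these summits. The strongest summit had a summit within 50 bases in replicate 1 in 219 regions and in replicate 2 in 219 (93.2% each), and the weakest in 195 (83.0%) and 209 (88.9%). Every summit was matched in both lists in 169 regions (71.9%, interval 65.9 to 77.3). The share of matched summits is not given here for single-summit regions or for the whole IDR list. So these shares are not shown to be high or low for the list. Most of the strongest summits also ranked high in the list, as given above, and the part of signal in their matching was not tested. Over all matched summits, the median distance from the position in the IDR list was 9 bases in each replicate. In those 169 the same summit was the stronger in both replicates in 166. The stronger lay at the lower coordinate in 165 of 169 in replicate 1 and in 166 of 169 in replicate 2. With this order in each list, agreement in nearly all regions follows, and the 166 show none beyond it. In regions with summits at least 240 bases apart the same summit was stronger in 86.7%, and at 300 bases or more in 60%. These wider shares rest on few regions. Over the 169, the weaker summit had a median of 30.6% of the signal of the stronger in replicate 1 (2.05% to 80.6%) and 35.8% in replicate 2 (4.53% to 98.2%). Between the replicates, Spearman's rho of this ratio was 0.661 over the 169 regions. Within a replicate all regions come from the same sample, so they are not independent of each other. The division of a region into several summits was itself less stable than the summits: a row set with identical coordinates overlapped 108 of the 235 in replicate 1, 142 in replicate 2, 77 in both and 62 in neither. In their full lists of 30000 rows, replicate 1 held 196 such regions in all and replicate 2 held 419. The IDR list comes from the pooled reads of the same replicates, so these matches describe the lists and are no independent test.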

How the data were processed

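The lists were deposited by the authors in narrowPeak format: 1 list of 30000 rows for each replicate and for the pooled replicates, and the IDR list (rows kept after an irreproducible discovery rate threshold), per the deposited file descriptions, each called against a control. Which caller and IDR threshold were used is not given in the sources used here. Signal values are the authors' deposited measure of enrichment and were used only within a list. Summits are deposited as offsets in bases, per the file headers' format, and are given 1-based on dm6. Rows with identical coordinates were joined to 1 region with pandas 2.3.3 and numpy 2.4.6 (Python 3.11.15; scipy 1.17.1). Starts and classes came from Ensembl release 115 and sequence from RefSeq's Release 6 genome, which has the dm6 coordinates. Overlap means 1 base or more. Intervals cover counting error only.

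The members and lists were chosen with earlier results of these data known. The regions named are the 10 strongest, those with 3 summits, the 5 strongest away from promoters, the 5 strongest at promoters of different genes, the 3 widest and 3 narrowest spacings (the strongest among equals), and the strongest 3 for each list. The other regions with summits at least 300 bases apart and the intronic regions of list genes were named after their values had been seen. Scripts were tested on simulated data. No test was made, since there is 1 group. The alternatives used either replicate alone, stronger rows, dm3, joined overlapping rows, and other distances and windows; those by summit distance, order and mirror position were added after seeing the data.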

Additional observations from a re-analysis of the deposited data

How the results depend on the processing

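The values that moved beyond their counting error are given here, except for 30 among the motifs and the promoter shares of single summits, of which examples are given. The cause of each shift was not tested. With the strongest 10918 rows of 1 replicate's list in place of the IDR list, the count of multi-summit regions was 144 to 302, against 235, the median width 470 to 531.5 bases, the median distance 203 to 205 bases, the share with the strongest summit first 98.0% to 99.3% and the share at promoters of different genes 7.28% to 11.1%. The strongest 5459 rows of the IDR list gave 130 regions, a median width of 574 bases and a weakest summit at 43.6% of the strongest. Joining overlapping rows gave 1092 regions, with the weakest at 53.1%. With promoters drawn at 250 and 1000 bases, the share with a promoter summit was 43.8% and 66.0%, that with every summit at one 21.3% and 61.3%, and that in 1 class 74.9% and 94.9%. The strongest summit was at a promoter in 32.8% at 250 bases and in 65.1% at 1000 bases, against 51.1%. With windows of 50 bases each side, TATAAA was at a summit of 31.1% of regions, against 56.2%, and GAGAGAG at one of 5.96%, against 11.9%. Matching within 25 and 100 bases gave 47.7% and 79.6% of regions with every summit in both replicates, and the strongest 10918 rows of each replicate list gave 57.0%. Restriction to summits at least 240 bases apart left 22 regions, with a median width of 880.5 bases, a distance of 269 bases, the strongest first in 77.3%, the same summit stronger in both replicates in 86.7%, and G+C at summits minus midpoints reversed to -4.37 points. At least 300 bases left 8 regions, with 1204 bases, 324 bases, a weakest summit at 37.3%, the strongest first in 50%, a promoter summit in 62.5%, every summit at one in 25%, 1 class in 62.5%, a G+C of 33.6% at summits, every summit in both replicates in 62.5%, the same summit stronger in 60%, and a difference of -10.2 points. On dm3 there were 228 regions. Depth is unknown, so no limit could be set on weak summits. No paired analysis was possible because there is 1 group.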

Other observations

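The order of neighbouring summits was the same in the lists that preceded the IDR list, over all regions and not only those with several summits. At 199 to 204 bases apart, the summit at the lower coordinate was the stronger in 2747 of 2761 neighbours of the pooled list (99.5%), 2339 of 2350 of replicate 1 (99.5%) and 3306 of 3316 of replicate 2 (99.7%). At 240 to 299 bases the shares were 77.1%, 74.9% and 77.1%, at 300 to 399 bases 58.9%, 53.8% and 58.5%, and at 400 to 499 bases 44.2%, 42.5% and 44.5%. Both replicates feed the pooled list, and a cause was not tested.

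Regions with nearly equal summits were rare. The weakest summit reached at least 80% of the strongest in 7 regions. The most equal pair lay at PIG-K on X, with 750 and 719 at 200 bases apart, followed by sky, the promoter of Sqor (1731 and 1525), an intron of Gug, introns of mam, a coactivator of Notch (1258 and 1047), the promoter of ced-6 and an intergenic region near Ids (1510 and 1885). The summits of 4 of these 7, at PIG-K, Sqor, mam and ced-6, were exactly 200 bases apart. These regions were named after their values had been seen.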
